A study of Mus musculus with 10 samples.

Results

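The mevalonate pathway makes the isoprenoid units from which liver cells build cholesterol, dolichol, the ubiquinone side chain and protein prenyl groups. Pmvk, phosphomevalonate kinase, adds a further phosphate to phosphomevalonate, and a decarboxylase then makes isopentenyl diphosphate. Idi1 interconverts isopentenyl and dimethylallyl diphosphate, the pair that is joined into longer isoprenoids. Sterol regulatory element binding proteins (SREBPs) are transcription factors known for driving this pathway, and SCAP escorts their membrane-bound precursors to the Golgi, where the active nuclear forms are released.

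Expression of these 2 genes was followed on 10 Affymetrix MG_U74Bv2 arrays of male mouse liver. All probe sets to which the platform annotation gives exactly the symbol Pmvk or Idi1 were taken, which left 3 of 12411 tested probe sets: 111380_at and 165157_r_at for Pmvk and 164172_at for Idi1. TgSREBP-1a and TgSREBP-2 mice expressed human SREBP-1a or human SREBP-2 as the transcriptionally active nuclear protein, were 12 to 16 weeks old and spent 2 weeks on high protein/low carbohydrate food, a diet chosen to raise transgene expression. Their wild type littermates had the same age and diet, and are called the diet-fed wild type here. The sources used here do not name the promoter of the transgenes. Scap-/- mice, described as lacking SCAP in liver, carried MX1-Cre, a recombinase gene driven by an interferon-responsive promoter, and were compared with wild type mice called the chow-fed wild type here. Both groups of that study were 10 to 12 weeks old, ate Teklad chow and received 4 injections of polyinosinic-polycytidylic acid, with livers taken 14 days after the last. RNA of 5 livers per group was combined into 1 pool and hybridised to 2 arrays, so n = 2 arrays throughout, and every p-value sets pools against hybridisation error and not against the spread between mice. In pooled bulk liver, fewer cells of a type and less RNA per cell cannot be told apart.

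The deposited values are log2 expression values made with RMA, and array medians lay between 5.628 and 5.664. Duplicates correlated between 0.9871 and 0.9944 over all tested probe sets. The 4 arrays of the Scap study each correlated best with an array of the other group of that study, and the second TgSREBP-2 array correlated best with a diet-fed wild type array. The targeted gene Scap read 7.94 and 7.75 on the Scap-/- arrays, against 9.24 and 8.89 on the chow-fed wild type arrays, on the brighter of its 2 probe sets. It fell by 1.22 ± 0.18 on the log2 scale (SE; limma, adjusted p = 0.018), and the sources used here do not say whether that probe set covers the deleted part. Of 12 listed hepatocyte markers 3 had a probe set (Apoa1, C8a and Hnf4a), with means of 13.11, 8.46 and 10.22 log2 units over the 10 arrays.

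Idi1 lies on chromosome 13 and Pmvk on chromosome 3 in GRCm38.p6, and both run on the plus strand. RefSeq promoter sequences are shown because both genes rose in both transgenic lines and fell in Scap-/-, as described below. Each is the 250 bases before an annotated start, 5′ to 3′, at chr13:8885356-8885605 for Idi1 and chr3:89454291-89454540 for Pmvk. Capitals mark matches to the E-box form CANNTG, the CCAAT box and the GC box GGGCGG on either strand.
Idi1: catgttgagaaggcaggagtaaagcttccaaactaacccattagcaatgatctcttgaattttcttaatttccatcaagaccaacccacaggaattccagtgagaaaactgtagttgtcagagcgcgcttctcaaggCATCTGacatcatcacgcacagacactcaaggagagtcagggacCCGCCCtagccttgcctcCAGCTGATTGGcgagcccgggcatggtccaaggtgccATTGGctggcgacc
Pmvk: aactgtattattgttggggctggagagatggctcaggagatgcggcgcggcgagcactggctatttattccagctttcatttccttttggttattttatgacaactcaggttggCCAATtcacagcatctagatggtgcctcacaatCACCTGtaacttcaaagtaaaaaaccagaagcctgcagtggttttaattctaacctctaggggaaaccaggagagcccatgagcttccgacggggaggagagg
The Idi1 window held 2 CCAAT boxes, both on the minus strand, at positions -45 to -41 and -14 to -10 from the start. It also held 1 GC box, at -69 to -64, and 2 E-box forms, of which CAGCTG directly adjoins the farther CCAAT box without overlapping it. The Pmvk window held 1 CCAAT box and 1 E-box form and no GC box. Of 32851 RefSeq promoter windows of this length, 33.8% held a CCAAT box, 32.7% a GC box and 66.2% a CANNTG. The sterol regulatory element form TCACNCCAC, searched on both strands, stood in 1.05% of all windows and in neither of these, nor did a version with at most 1 mismatch, which 20.7% of windows held. The shorter form CACNCCAC, contained in the longer one, was likewise not in either window and stood in 5.29% of all, and the E-box CACGTG, a special case of CANNTG, was in neither and in 6.02% of all. RefSeq gives Pmvk another start at position 89459571 of chromosome 3, inside the gene, which spans 89454541 to 89469014. The 250 bases before that start held 2 E-box forms and none of the other motifs, including the 1-mismatch form. That stretch holds an ATG followed by a long open reading frame, so it may be exon sequence and not a promoter. Bases between the 2 Pmvk windows were not searched, so a motif missing from both may still lie there. All matches given here describe letters in 250 bases and say nothing of binding.

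The brighter Pmvk probe set spanned 3.92 log2 units over the 10 arrays, a 15.2-fold range. It read 9.76 and 9.35 in TgSREBP-1a, with TgSREBP-2 at 9.64 and 9.21, against 6.86 and 6.29 in the diet-fed wild type. In Scap-/- it read 6.24 and 5.84, against 8.50 and 7.97 in the chow-fed wild type. Both transgenic pools stood above every other array, and their own arrays overlapped each other. Scap-/- stood lowest, with a gap of only 0.05 between its higher array and the lower diet-fed wild type array, less than the difference between duplicates in either pool. The first array read higher than the second in all 5 pools, by 0.40 to 0.58, while for Idi1 it did so in 2 of 5.

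Idi1 spanned 3.48 log2 units, an 11.1-fold range. It read 7.06 and 7.23 in TgSREBP-1a, with TgSREBP-2 at 8.19 and 8.45, against 5.61 and 5.46 in the diet-fed wild type. In Scap-/- livers it read 4.97 and 5.24, against 7.57 and 7.16 in the chow-fed wild type. TgSREBP-2 stood above all other pools. TgSREBP-1a and the chow-fed wild type overlapped, with means of 7.14 ± 0.12 and 7.36 ± 0.29 (SD, n = 2), although these pools differ in diet, age and injections as well as in the transgene. The diet-fed wild type came next, and its lower array lay 0.22 above the higher Scap-/- array, so that the order of Idi1 over the pools differed from that of Pmvk in where TgSREBP-1a stood.

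The other Pmvk probe set, 165157_r_at, showed none of this. Its values lay between 4.34 and 4.87 on all 10 arrays, the arrays of neighbouring pools overlapped throughout, and 28.3% of tested probe sets were dimmer on average, compared with 92.8% for the brighter Pmvk probe set and 73.4% for Idi1. In Affymetrix names the r marks a probe set designed under relaxed selection rules. Its changes were -0.09 in TgSREBP-1a, -0.20 in TgSREBP-2 and 0.21 in Scap-/-, none of them called, and the 95% intervals of these changes reached no further than -0.54 and 0.55. Averaging both Pmvk probe sets gave changes of 1.44 in TgSREBP-1a, 1.32 in TgSREBP-2 and -0.99 in Scap-/-, still called. What is given for Pmvk below rests on the brighter probe set alone, and which transcripts either probe set detects was not tested.

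**Figure D1:**
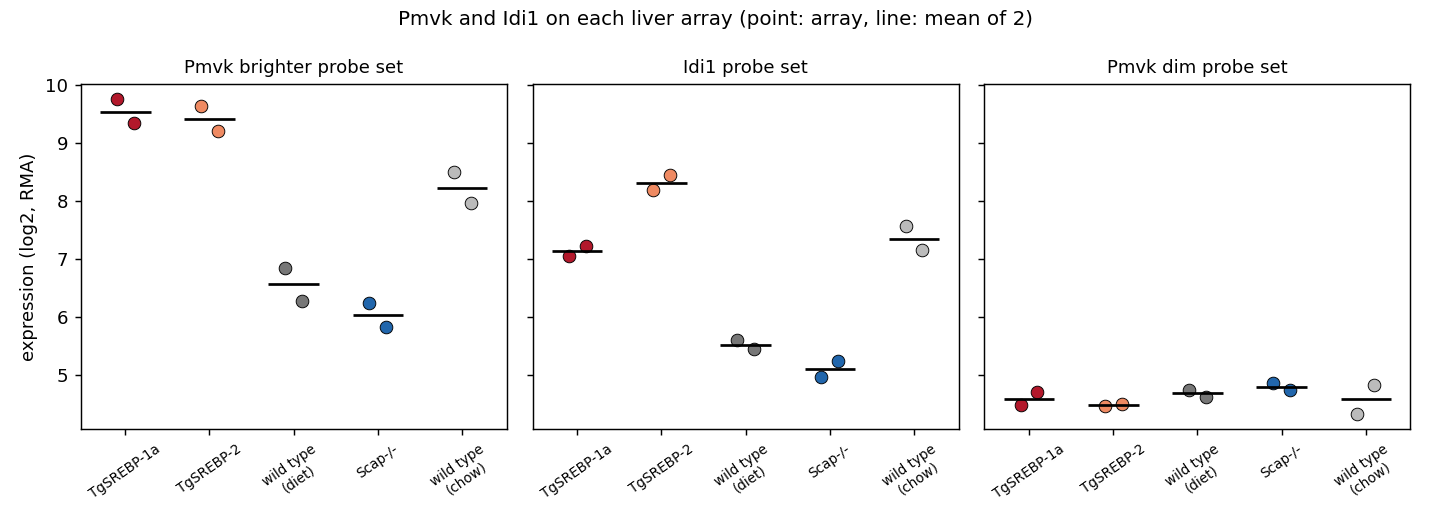
Expression of the 3 probe sets on each array, in log2 units after RMA, by pool. Points are arrays and lines are means of 2; the brighter Pmvk probe set and Idi1 are high in both transgenic pools and in the chow-fed wild type and low in Scap-/- and the diet-fed wild type, while the dim Pmvk probe set stays between 4.34 and 4.87.

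The first question was how the members responded to nuclear SREBP-1a. Pmvk averaged 9.55 ± 0.29 in TgSREBP-1a and 6.58 ± 0.41 in the diet-fed wild type (SD, n = 2), and Idi1 averaged 7.14 ± 0.12 and 5.53 ± 0.10. Pmvk rose 7.87-fold, a log2 change of 2.98 ± 0.25 (SE; limma, adjusted p = 9.7e-05), and Idi1 rose 3.06-fold, a log2 change of 1.61 ± 0.16 (adjusted p = 0.00022). Calls required at least a 1.5-fold change with adjusted p under 0.05, and 2 of the 3 member probe sets were called higher, where 1.36% of all tested probe sets were. By size, Pmvk held place 4 and Idi1 place 35 among the rises of all 12411 probe sets.

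In TgSREBP-2 the genes rose by nearly equal amounts. Pmvk averaged 9.42 ± 0.31 there and Idi1 8.32 ± 0.18, against the same diet-fed wild type means of 6.58 ± 0.41 and 5.53 ± 0.10 (SD, n = 2). Pmvk rose 7.20-fold (2.85 ± 0.25 on the log2 scale, SE; limma, adjusted p = 0.00056) and Idi1 6.91-fold (2.79 ± 0.16, adjusted p = 2.7e-05). They held places 2 and 3 among all rises, and 2 of 3 member probe sets were called higher, where 0.338% of all probe sets were. Since TgSREBP-1a and TgSREBP-2 share their wild type arrays, the rises in the lines are not independent of each other.

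Loss of SCAP lowered both. Pmvk averaged 6.04 ± 0.29 in Scap-/- and 8.23 ± 0.38 in the chow-fed wild type, and Idi1 5.11 ± 0.19 and 7.36 ± 0.29 (SD, n = 2). The log2 change was -2.20 ± 0.25 for Pmvk (4.58-fold lower; SE; limma, adjusted p = 0.0047) and -2.26 ± 0.16 for Idi1 (4.78-fold lower, adjusted p = 0.00015). They took places 7 and 6 among all falls, and 2 of 3 member probe sets were called lower, where 0.258% of all were. The call of Pmvk ended without the second Scap-/- array (adjusted p = 0.087) and in a fit of only the 4 arrays of that study (adjusted p = 0.08), while that of Idi1 held in each of these.

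**Figure D2:**
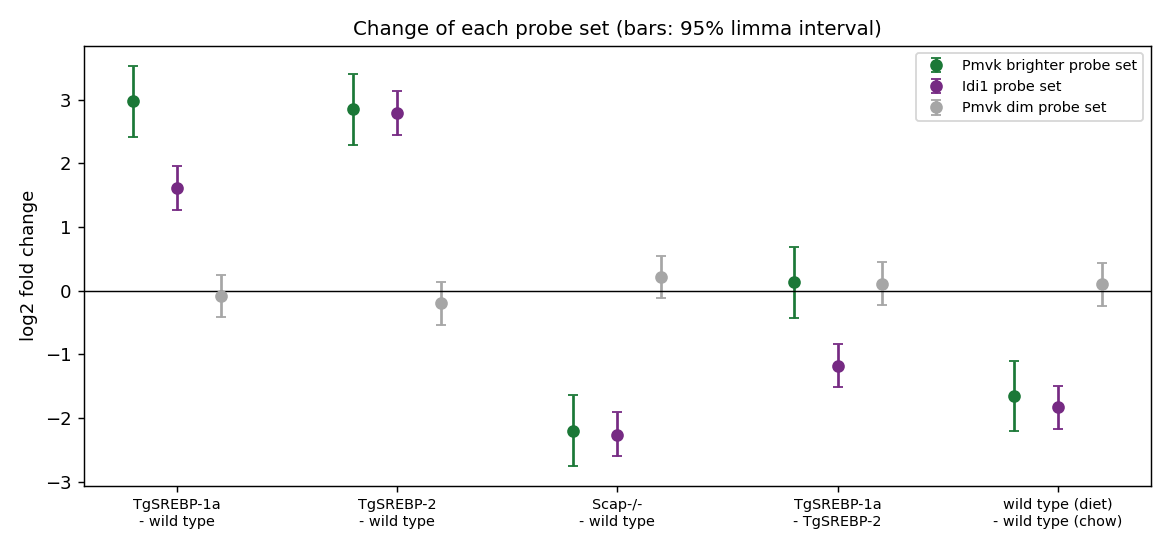
Log2 fold change of each probe set in 5 comparisons, with 95% limma intervals. The genes rise alike in TgSREBP-2 (2.85 and 2.79) and fall alike in Scap-/- (-2.20 and -2.26), but Idi1 rises less than Pmvk in TgSREBP-1a (1.61 and 2.98).

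The transgenic lines were set against each other to ask in which line the members stood higher. Each line is 1 pool, and the amount of nuclear SREBP in it was not examined. Form and amount of SREBP therefore cannot be told apart. Idi1 was lower in TgSREBP-1a than in TgSREBP-2 by a log2 difference of -1.18 ± 0.16 (2.26-fold; SE; limma, adjusted p = 0.0027), with no overlap between arrays. It was the 1 member probe set called lower, where 0.677% of all probe sets were. Pmvk differed by 0.13 ± 0.25 between the lines (adjusted p = 0.86), with a 95% interval from -0.43 to 0.68. That interval, before adjustment over all probe sets, is the range of differences these arrays allow, in either direction. The call of Idi1 ended at an adjusted p of 0.053 without the first TgSREBP-1a array, with a difference of -1.09.

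Whether the genes moved by equal amounts was asked of their difference on each array, Pmvk minus Idi1 on the log2 scale. Between pools only the change of this difference carries meaning, since levels of different probe sets cannot be compared. Changes can depend on the probe set too, as RMA compresses those of dim ones. Idi1 (mean 6.69) was dimmer than Pmvk (7.96), and the part of this was not tested. The difference was 2.70 and 2.12 in TgSREBP-1a, against 1.26 and 0.83 in the diet-fed wild type. In TgSREBP-2 it was 1.45 and 0.76, which overlapped that same wild type. Pmvk thus moved further than Idi1 by 1.36 in TgSREBP-1a (exact permutation test over arrays, two-sided, p = 0.333), the smallest p that 2 arrays against 2 allow, and by 0.06 in TgSREBP-2 (exact permutation p = 1). In Scap-/- the difference was 1.27 and 0.60, against 0.93 and 0.81 in the chow-fed wild type, a change of 0.06 with overlapping arrays (exact permutation p = 1).

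The sizes of gain and loss were also compared, by adding the change in a transgenic line to the change in Scap-/-, which is above 0 where the rise is larger than the fall. For Pmvk the sum was 0.78 ± 0.35 with TgSREBP-1a and 0.65 ± 0.35 with TgSREBP-2 (SE; limma, adjusted p = 0.55 and 0.58). For Idi1 it was -0.64 ± 0.22 with TgSREBP-1a and 0.53 ± 0.22 with TgSREBP-2 (adjusted p = 0.33 and 0.51). None of the members was called in either sum, where 1.25% and 0.209% of all probe sets were called in either direction. The 95% intervals of Idi1, from -1.13 to -0.15 and from 0.04 to 1.02, lay on opposite sides of 0 before adjustment over all probe sets.

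The wild type pools showed how far the members varied without transgene or knockout. Pmvk averaged 6.58 ± 0.41 in the diet-fed wild type and 8.23 ± 0.38 in the chow-fed wild type (SD, n = 2). Idi1 averaged 5.53 ± 0.10 in the diet-fed pool and 7.36 ± 0.29 in the chow-fed pool. The log2 difference was -1.66 ± 0.25 for Pmvk (3.15-fold lower in the diet-fed pool; SE; limma, adjusted p = 0.022) and -1.83 ± 0.16 for Idi1 (3.56-fold lower, adjusted p = 0.00084). They took places 6 and 4 among all falls, and 2 of 3 member probe sets were called lower, where 0.355% of all were. Diet, age, injections and the mouse colony differ together between these pools and cannot be told apart. The call of Pmvk ended without the first chow-fed wild type array (-1.39, adjusted p = 0.10), without the second diet-fed wild type array (-1.37, adjusted p = 0.23) and with only the 4 wild type arrays (adjusted p = 0.11).

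The rises in the transgenic lines were thus measured from a low wild type level and the falls in Scap-/- from a high one. In log2 units the diet-fed wild type stood 0.54 above Scap-/- for Pmvk and 0.43 above it for Idi1. TgSREBP-2 stood above the chow-fed wild type by 1.19 for Pmvk and 0.96 for Idi1, with no overlap of arrays. These last values cross the studies and carry no test.

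**Figure D3:**
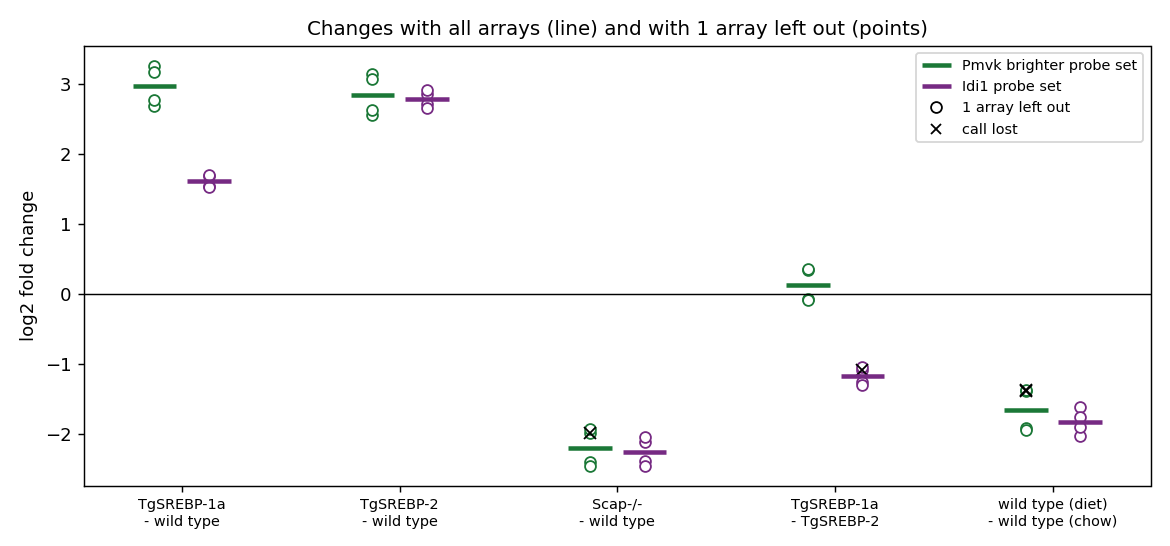
Log2 fold changes of the brighter Pmvk probe set and Idi1 with all arrays (lines) and with each array of the comparison left out in turn (open points). Crosses mark a lost call: 1 for Pmvk in Scap-/-, 1 for Idi1 between the lines and 2 for Pmvk between the wild type pools, while the rises in both transgenic lines stay between 1.53 and 3.26.

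Enzymes of sterol synthesis were read from a list of 20 genes, of which 7 had a probe set with that symbol, Pmvk and Idi1 included. Both members are part of the counts and medians of this list, and they enlarge its medians in TgSREBP-2, in Scap-/- and between the wild type pools. The other genes ran from 0.66 to 2.12 in TgSREBP-1a, from 1.13 to 3.02 in TgSREBP-2 and from -2.39 to -0.59 in Scap-/-. In TgSREBP-1a 6 of the 7 were called higher (1.36% of all probe sets were), with a median log2 change of 1.61 (all probe sets -0.02). In TgSREBP-2 all 7 were called higher (0.338% of all were), with a median of 2.72 (all probe sets -0.02). In Scap-/- 6 were called lower (0.258% of all were), with a median of -1.57 (all probe sets 0.02). Leaving out the second Scap-/- array gave a count of 2, leaving out the first chow-fed wild type array left a count of 3, and fitting only the 4 arrays of that study gave 1. Cyp51, the lanosterol demethylase, rose by 2.12 ± 0.15 in TgSREBP-1a and 2.72 ± 0.15 in TgSREBP-2 and fell by 1.57 ± 0.15 in Scap-/- (SE, log2). Nsdhl, which removes a C4 carboxyl group from sterols, rose by 1.05 ± 0.13 and 1.49 ± 0.13 in these lines and fell by 0.95 ± 0.13. Hsd17b7, the sterol ketoreductase, rose by 1.64 ± 0.32 and 3.02 ± 0.32 and fell by 2.39 ± 0.32. Lss, the cyclase that forms lanosterol, rose by 1.61 ± 0.15 and 1.44 ± 0.15, and its change of -0.59 ± 0.15 in Scap-/- was not called. Sc5d, the sterol C5 desaturase, changed by 0.66 ± 0.17 in TgSREBP-1a without a call, rose by 1.13 ± 0.17 in TgSREBP-2 and fell by 1.17 ± 0.17 in Scap-/-.

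Between the lines 1 of the 7, Idi1, was called, where 1.86% of all probe sets were called in either direction. The median difference of TgSREBP-1a minus TgSREBP-2 was -0.47 (all probe sets 0.01). The differences ran from -1.38 for Hsd17b7, which was not called (adjusted p = 0.055), to 0.17 for Lss, and those of Pmvk and Lss alone were above 0. Without the first TgSREBP-1a array 0 of the 7 were called, without the second TgSREBP-2 array 2, and with only the 4 arrays of these lines 3. Between the wild type pools 5 of 7 were called lower in the diet-fed pool, where 0.355% of all probe sets were. The median was -1.47 (all probe sets 0.02), and Idi1 and Pmvk differed most of the 7. That count was 3 without the first chow-fed wild type array, 2 without the second diet-fed wild type array and 1 with only the 4 wild type arrays. Sc5d was lower there by -1.60 ± 0.17, Cyp51 by -1.23 ± 0.15 and Nsdhl by -0.88 ± 0.13. Hsd17b7 (-1.47 ± 0.32) and Lss (-0.65 ± 0.15) were not called.

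The enzymes that use the product of Idi1 for other ends were read from another list. Of 20 listed genes for the chain-lengthening, dolichol, ubiquinone, prenylation, heme A and tRNA branches, 11 had a probe set, and limma called 0 of them in any of the 5 comparisons. Of all probe sets, 2.18% were called in either direction in TgSREBP-1a, 0.5% in TgSREBP-2, 0.274% in Scap-/-, 1.86% between the lines and 0.508% between the wild type pools, so a count of 0 among 11 is near the background. At an unadjusted p under 0.05 there were 2 of the 11 in TgSREBP-1a (10.3% of all probe sets), 2 in TgSREBP-2 (7.92%), 0 in Scap-/- (7.74%), 3 between the lines (14.7%) and 1 between the wild type pools (9.7%). The median log2 change of the 11 was -0.01 in TgSREBP-1a, 0.09 in TgSREBP-2 and -0.08 in Scap-/-, and single values ran from -0.37 (Trit1, a tRNA isopentenyltransferase, in TgSREBP-2) to 0.45 (Coq2 of ubiquinone synthesis, in TgSREBP-1a). Between the wild type pools all 11 values were below 0, from -0.50 to -0.09, again without a call.

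**Figure D4:**
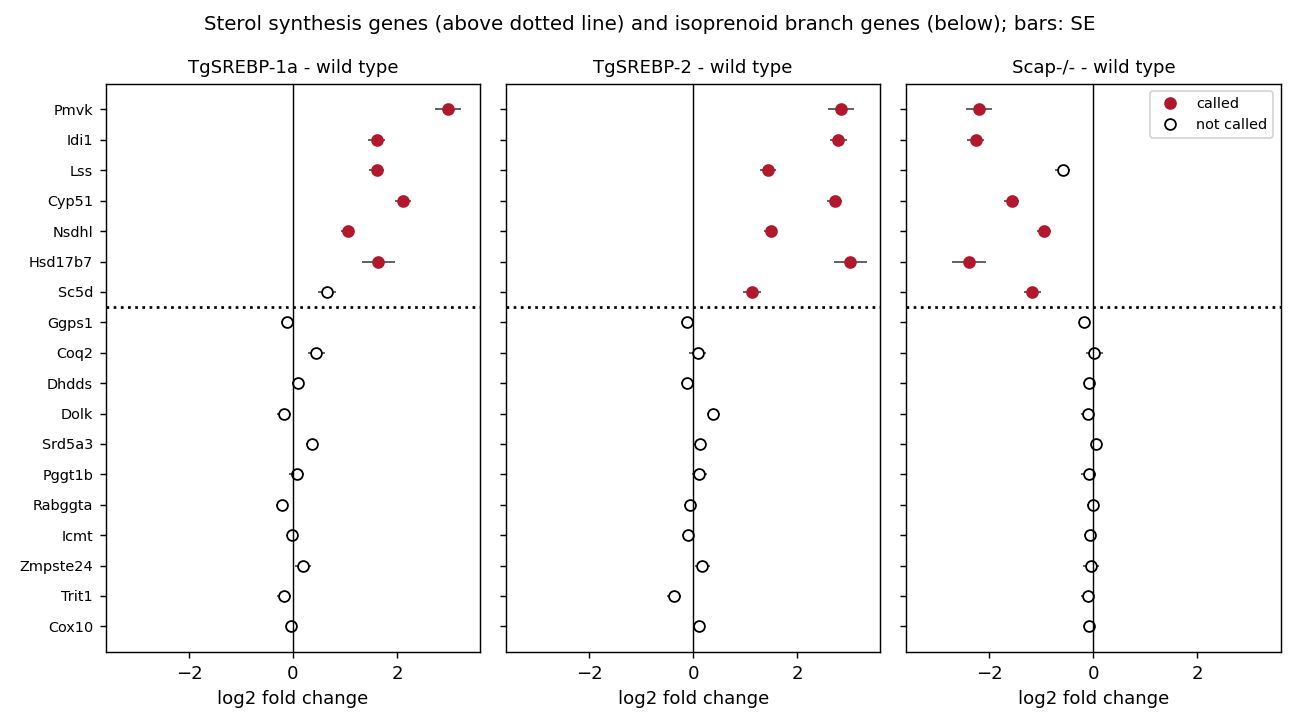
Log2 fold changes of 7 genes of sterol synthesis and 11 genes of the isoprenoid branches in 3 comparisons, with SE bars. Filled points are called; the sterol synthesis genes lie above 0 in both transgenic lines and below 0 in Scap-/-, and the branch genes lie between -0.37 and 0.45.

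The responses closest to those of the members were found by the root mean square difference of the log2 fold changes over 3 comparisons (both transgenic lines and Scap-/-, each against its wild type), among probe sets with 1 symbol. Closest to Pmvk was Insig1, which holds SCAP back in the endoplasmic reticulum, with a root mean square difference of 0.342 log2 units (3.03, 2.36 and -2.53 in TgSREBP-1a, TgSREBP-2 and Scap-/-). Next came Acss2 (0.595), the acetyl-CoA synthetase, then Cyp51 (0.620), Hsd17b7 (0.785) and Idi1 (0.789). Closest to Idi1 was Hsd17b7 at 0.155, followed by the sterol carrier Stard4 (0.471), Cyp51 (0.495), Acss2 (0.701) and Pmvk (0.789). So each member stood at place 5 in the other's list, and 3 genes (Cyp51, Hsd17b7 and Acss2) stood in both lists. By Pearson's r over the 5 pool means, which ignores the size of the response, 0 of the 5 closest to Pmvk and 1 of the 5 closest to Idi1 stayed in the list.

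**Figure D5:**
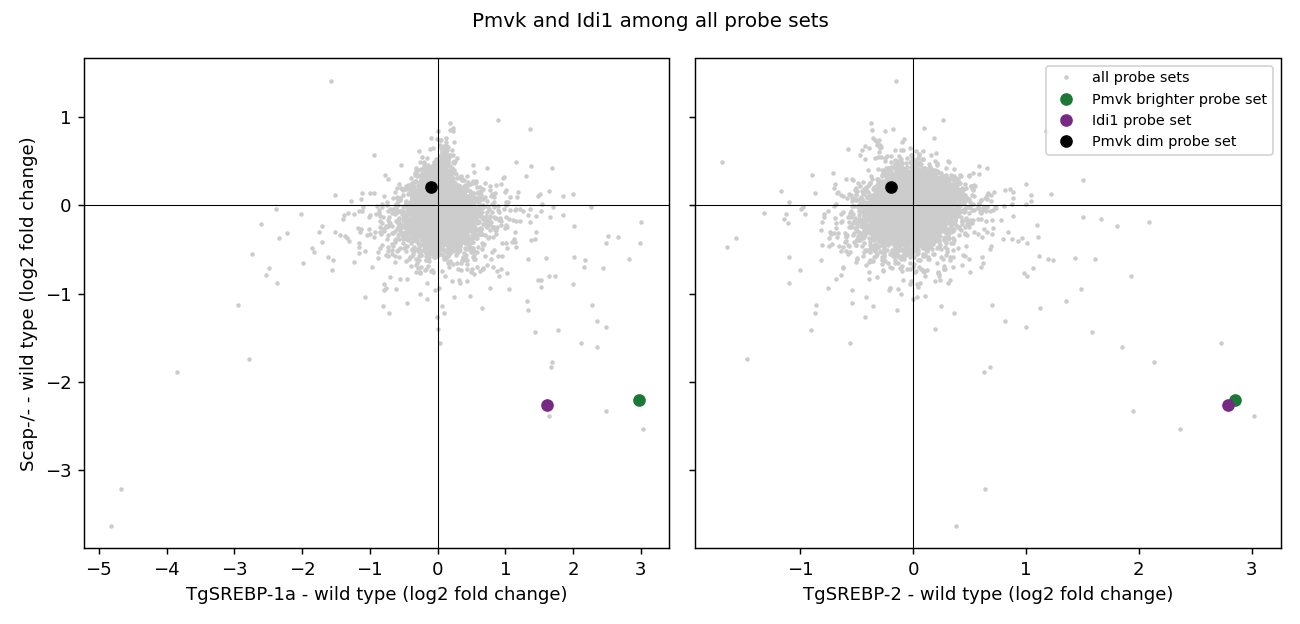
Log2 fold change in Scap-/- (vertical) against that in TgSREBP-1a or TgSREBP-2 (horizontal) for all 12411 probe sets. The brighter Pmvk probe set and Idi1 lie at the lower right, away from the cloud around 0, while the dim Pmvk probe set lies within it.

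Genes next to the members on the chromosome were read for comparison. Of the 3 RefSeq genes on either side of Pmvk, Pbxip1, Adar and Chrnb2 had probe sets, and their changes in TgSREBP-1a, TgSREBP-2 and Scap-/- lay between -0.37 and 0.25, with 0 called by limma and, at an unadjusted p under 0.05, 1 of 4 probe sets in Scap-/- and 0 in each transgenic line. Beside Idi1 only Wdr37 of the 6 neighbours had probe sets, 4 of them, with changes between -0.11 and 0.31, 0 called and, at an unadjusted p under 0.05, 1 in TgSREBP-1a and 0 in TgSREBP-2 and Scap-/-. Between the lines, where Idi1 differed, the 4 Wdr37 probe sets changed by 0.22 to 0.33 with 0 called and 2 at an unadjusted p under 0.05, and between the wild type pools 1 of the 4 passed that unadjusted p. Beside Pmvk 1 of 4 probe sets did so between the wild type pools and 0 between the lines. Of all probe sets, 10.3% passed the unadjusted p in TgSREBP-1a, 7.92% in TgSREBP-2 and 7.74% in Scap-/-. The share was 14.7% between the lines and 9.7% between the wild type pools. At most 2.18% were called in any of these comparisons, so 0 called among 4 neighbour probe sets is near the background.

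Markers of other cells moved with some of these comparisons. Of 10 listed genes of pancreatic acinar cells 3 had a probe set (Cpb1, Cela3b and Ctrc), and their summed linear level was 227 to 228 in TgSREBP-1a and 3220 to 4230 in TgSREBP-2, against 1970 to 2640 in the diet-fed wild type. In Scap-/- the sum was 260 to 269, against 912 to 1110 in the chow-fed wild type. The sum was thus low both where Pmvk and Idi1 rose, in TgSREBP-1a, and where they fell, in Scap-/-. Cpb1 and Cela3b were called lower in both, while Ctrc was not called in either (-0.22 and -0.13). In TgSREBP-2 only Ctrc was called (1.51), and Cpb1 and Cela3b changed by 0.63 each without a call. The 1 measured Kupffer cell marker of 7, Cd163, rose by 0.91 in TgSREBP-1a, to a linear level of 52.3 to 55.8, against 28.2 to 29.5 in the diet-fed wild type. Of 5 measured endothelial markers of 10, 1 (Lyve1) rose in TgSREBP-1a, with a sum of 844 to 905, against 731 to 780. Of 3 measured blood cell markers of 8, 1 (Tfrc) rose in TgSREBP-2, with a sum of 101 to 112, against 51.7 to 52.5 in the diet-fed wild type. The 3 measured stellate and cholangiocyte markers of 9 had 0 calls by limma and 0 at an unadjusted p under 0.05 in every comparison. Of all probe sets, 2.18% were called in TgSREBP-1a, 0.5% in TgSREBP-2, 0.274% in Scap-/- and 1.86% between the lines. At the unadjusted p the shares ran from 7.74% to 14.7%, so 0 among these 3 is near the background. Lrat and Krt7 were dim, with means of 4.77 and 3.24. Of the hepatocyte markers C8a fell by 2.60 in TgSREBP-1a, while Apoa1 and Hnf4a changed by -0.42 each without a call, and the sum of the 3 was 8570 to 9310 there, against 11700 to 13000 in the diet-fed wild type. In TgSREBP-2 that sum was 6440 to 12100, and in Scap-/- it was 9900 to 11500, against 11700 to 12800 in the chow-fed wild type. Most of this sum is Apoa1 (mean 13.11, against 10.22 for Hnf4a and 8.46 for C8a), which was not called in any comparison. Between the lines, where Idi1 was lower in TgSREBP-1a, all 3 acinar markers and C8a (-2.58) were also lower in TgSREBP-1a, as was Tfrc (-1.38). Cd163 (1.21) and the endothelial markers Lyve1 (0.82) and Ptprb (1.02) were higher there. Cd163 and Lyve1 were dim, with means of 4.90 and 4.83. The other measured endothelial markers, Stab1 (0.04), Stab2 (0.16) and Eng (0.33), were not called between the lines. Neither were Apoa1, Hnf4a, Cd3e and Ms4a1. The part of any of these in the levels of Pmvk and Idi1 was not tested.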

How the data were processed

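Liver RNA pools of 5 groups were measured on 10 Affymetrix arrays, 2 hybridisations per pool. The deposited values are log2 expression values made by the authors with RMA, per the submitters' processing notes, while the series' design text names Affymetrix's Microarray Suite. RMA removes background, equalises the arrays' distributions and summarises probes, which compresses changes of dim probe sets. Of 12477 deposited probe sets 66 controls were left out. limma 3.58.1 in R 4.3.3 was fitted to the deposited log2 values of the other 12411, with 1 coefficient per group over all 10 arrays, eBayes and Benjamini-Hochberg adjustment over all probe sets. Called means an adjusted p under 0.05 and at least 1.5-fold. The fit was tested on simulated data. A gene with several probe sets is represented by the brightest outside the members. The number of arrays limits the precision.

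Members and gene lists were chosen with earlier results of these data known. Named are all member probe sets, called list members, the 5 probe sets most like each member (root mean square difference), 3 RefSeq neighbours a side and Scap; cell markers and the ends of ranges were named after their values were seen. Promoters come from RefSeq on GRCm38.p6; the sources used here name no build for the array annotation. Alternatives left out each array, added the hybridisation number as a block, fitted only the arrays compared, changed moderation, normalization, dim filter and thresholds, or averaged a gene's probe sets.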

Additional observations from a re-analysis of the deposited data

Results flagged for a closer look

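The response of Idi1 differed between the transgenic lines, in which form and amount of SREBP cannot be told apart. Its log2 change was 1.61 in TgSREBP-1a and 2.79 in TgSREBP-2, and since both lines share the diet-fed wild type arrays, the difference of the responses equals that between the lines, -1.18 ± 0.16 (SE; limma, adjusted p = 0.0027). The adjusted p over the alternatives ran from 0.0011 to 0.053, the last without the first TgSREBP-1a array.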

How the results depend on the processing

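Over 21 member results and 255 alternatives, 248 kept their side of the threshold, 6 lost a call and 1 gained one. The sign changed in 0 of 103 alternatives of called results and in 9 of 152 of results not called, such as Pmvk between the lines (-0.09 to 0.35). Leaving out each array moved Pmvk in Scap-/- between -2.46 and -1.93 (highest adjusted p = 0.087), Pmvk between the wild type pools between -1.95 and -1.37 (0.23), and Idi1 between the lines between -1.30 and -1.05 (0.053). With only the arrays compared, Pmvk kept its values of -2.20 in Scap-/- and -1.66 between the wild type pools, with adjusted p of 0.08 and 0.11. Averaging both Pmvk probe sets gave changes of 1.44 in TgSREBP-1a, 1.32 in TgSREBP-2, -0.99 in Scap-/- and -0.78 between the wild type pools, all still called. The labels number the hybridisations but do not say what a number marks, and the deviations of same-numbered arrays correlated above 0.1 in 7 of 10 pairs of pools, at 0.343 to 0.598 in the 6 pairs without TgSREBP-2 and at -0.167 to 0.113 in the 4 with it, so the numbers were not taken to pair all pools. With that number as a replicate block, the adjusted p of Pmvk was 6.8e-07 in Scap-/- and 1.8e-05 between the wild type pools, the Pmvk sum of 0.78 for TgSREBP-1a passed (adjusted p = 0.0079), no other member call changed, and called probe sets were 335 against 270 in TgSREBP-1a, 101 against 62 in TgSREBP-2, 91 against 34 in Scap-/-, 306 against 231 between the lines, 145 against 63 between the wild type pools, and 321 against 155 and 87 against 26 in the sums. Leaving out 1 array gave 142 to 193, 25 to 124, 10 to 68, 87 to 384, 14 to 120, 63 to 211 and 8 to 48 in the same order. Only the arrays compared gave 5 in Scap-/-, 13 between the wild type pools and 11 in the TgSREBP-2 sum, and a 2-fold threshold gave 133, 38, 115 and 33 in TgSREBP-1a, TgSREBP-2, between the lines and between the wild type pools. Normalizing again gave 42 in the TgSREBP-2 sum. The cause of these shifts was not tested.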
